A study of Mus musculus with 8 samples.

Results

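T cell receptor variable (V) and constant (C) genes were described in RNA from mouse buffy coat, the thin layer of leukocytes and platelets that forms when blood is spun. Members were the genes that the GENCODE M21 annotation types as T cell receptor V or C genes, whatever their level. They came to 152 of the 35944 genes in the table. The alpha locus gave 110 V genes and 1 C gene, the beta locus 22 V and 2 C, the gamma locus 7 V and 4 C, and the delta locus 5 V and 1 C. C920008G01Rik and B230359F08Rik, which carry no segment name, were placed in the alpha locus by position.

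The mice received PM2.5, the fine fraction of airborne particles, or PBS, a buffered saline used as the control, for 24 weeks. The 4 exposed libraries carry the numbers 9, 17, 18 and 21 in their labels, used here as replicate numbers. The 4 control libraries carry the numbers 4, 10, 12 and 16. Strain, age and dose are not in the labels used here, nor is it said whether the libraries are from different animals, so the p-values speak to the spread between these libraries alone.

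A T cell receptor is a pair of chains, alpha with beta on most blood T cells or gamma with delta on a smaller set. Each developing T cell joins a V segment to a J segment, with a D segment between them in beta and delta chains, and the joined exon is spliced to a constant gene. V segments build much of the antigen-binding face, while constant genes encode the part of the chain that is anchored in the membrane and associates with the CD3 subunits.

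Libraries held 72042685 to 89003605 expected counts, of which the haemoglobin genes took 86.7% to 88.6% in PM2.5 libraries and 82.4% to 87.9% in PBS libraries. The counts left for all other genes were 9615115 to 12714432 per library. Levels are given in CPM of the TMM-scaled library, which includes haemoglobin counts, and a floor of 3 counts stood at 0.0273 to 0.0555 CPM in a single library. This floor covers counting error only. PM2.5 replicates 17 and 18 each held 29 counts of the neuronal gene Snap25, against 0 in PM2.5 replicates 9 and 21 and 0 to 3 in PBS libraries. They also had the smallest TMM-scaled library sizes, and values without both are given where they turn a direction.

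All members together held 467, 309, 281 and 452 counts in PM2.5 replicates 9, 17, 18 and 21, and 448, 773, 415 and 557 in PBS replicates 4, 10, 12 and 16. PBS replicate 10 was the highest, PM2.5 replicates 17 and 18 were the lowest, and the groups overlapped. The 3702 counts were spread over 112 of the 152 members, and 2821 of them lay in 7 constant genes. On the TMM scale the summed level was 5.51 ± 0.278 CPM with PM2.5 and 5.49 ± 1.30 CPM with PBS (SD, n = 4 each). Taken as CPM of the counts outside haemoglobin it was 37.6 ± 8.75 with PM2.5 and 47.7 ± 15.8 with PBS. In bulk RNA, the number of T cells and the receptor RNA per cell cannot be told apart in such values.

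Only 4 of the 152 members, Trac, Trbc1, Trbc2 and Trdc, passed the filter on low counts. None of the 4 was past adjusted p 0.05 in edgeR's quasi-likelihood test, and none had an unadjusted p under 0.05. Over all 10361 genes tested, 1.60% were called and 18% had an unadjusted p under 0.05. DESeq2 called 0 of the 4, with 0 at an unadjusted p under 0.05, beside 3.58% and 18.5% of all genes. With no filter, edgeR tested 111 members and called 0, with 4 at an unadjusted p under 0.05; of all 18035 genes in that fit, 3.46% were called and 15.6% had an unadjusted p under 0.05. On log2(FPKM + 1), limma tested 38 members and called 0, with 7 at an unadjusted p under 0.05; of all 10085 genes in that fit, 0 were called and 19.5% had an unadjusted p under 0.05.

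Trac, the constant gene of the alpha chain (chromosome 14, 54220521 to 54224206, GRCm38), had 98, 56, 38 and 76 counts in PM2.5 replicates 9, 17, 18 and 21, and 66, 126, 54 and 102 in PBS replicates 4, 10, 12 and 16. The groups overlapped, with the highest value in PBS replicate 10 and the lowest in PM2.5 replicate 18. Its level was 0.963 ± 0.217 CPM with PM2.5 and 0.859 ± 0.249 CPM with PBS (SD, n = 4 each). The log2 fold change was 0.17 (SE 0.24, edgeR adjusted p = 0.737), with an interval from -0.31 to 0.64. The direction was not stable: it was -0.37 when libraries were scaled to their totals, a scaling that placed the median of all genes at -0.52 instead of 0.04.

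The beta locus carries a pair of constant genes, each preceded by its own D segment and J cluster, and both encode a working chain. Trbc1 (chromosome 6, 41538218 to 41539881) had 81, 36.87, 43.59 and 79.35 counts in PM2.5 replicates 9, 17, 18 and 21, and 91.4, 153.73, 72.85 and 129.33 in PBS replicates 4, 10, 12 and 16. Trbc2 (chromosome 6, 41546730 to 41548352) had 119, 129.13, 112.41 and 142.65 counts in the PM2.5 libraries, and 162.6, 268.27, 169.15 and 140.67 in the PBS libraries, in the same order. The groups overlapped for each gene, and several counts were not whole because the counting shared fragments out between transcripts. The reason to print both coding sequences is that they differ at few bases. Over the whole transcripts, 28.7% of stretches of 100 bases in Trbc1 and 30.9% in Trbc2 were shared with another annotated gene. Most stretches were thus not shared. The last 300 of 518 coding bases are given, positions 219 to 518, with exons joined, 5′ to 3′ on the plus strand of GRCm38, from Trbc1 at chr6:41538218-41539881 and Trbc2 at chr6:41546730-41548352. Capitals mark the 23 bases at which they differ.
Trbc1: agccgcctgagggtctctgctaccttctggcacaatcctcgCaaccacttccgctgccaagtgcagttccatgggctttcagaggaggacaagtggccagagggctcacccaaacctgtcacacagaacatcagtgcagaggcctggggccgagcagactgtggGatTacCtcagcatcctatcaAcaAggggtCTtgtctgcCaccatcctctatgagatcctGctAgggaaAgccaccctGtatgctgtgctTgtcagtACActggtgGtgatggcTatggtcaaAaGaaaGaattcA
Trbc2: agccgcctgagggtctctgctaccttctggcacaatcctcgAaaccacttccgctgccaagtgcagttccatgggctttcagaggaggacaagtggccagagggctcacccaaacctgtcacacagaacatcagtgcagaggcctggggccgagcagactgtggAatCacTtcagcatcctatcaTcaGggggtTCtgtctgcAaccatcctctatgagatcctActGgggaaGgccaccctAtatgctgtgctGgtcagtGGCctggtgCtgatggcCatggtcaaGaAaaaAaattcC
The opening 259 coding bases were identical, the first difference stood at position 260 and the next at position 383, counted from the first coding base. Coding identity was 95.6%. The sum of the pair was whole in all 8 libraries, at 200, 166, 156 and 222 with PM2.5 and 254, 422, 242 and 270 with PBS, to within 0.011 counts. The division between Trbc1 and Trbc2 is therefore the less certain value and the sum the firmer one.

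In summed unscaled counts every PM2.5 library lay below every PBS library, but how many of all genes share this was not computed. On the TMM scale the beta constant sum was 2.76 ± 0.248 CPM with PM2.5 and 3.0 ± 0.754 CPM with PBS (SD, n = 4 each), and the groups overlapped. Trbc1 was 0.858 ± 0.148 CPM with PM2.5 and 1.11 ± 0.258 CPM with PBS, and its log2 fold change was -0.36 (SE 0.22, edgeR adjusted p = 0.390, interval -0.78 to 0.07). Trbc2 was 1.91 ± 0.395 CPM with PM2.5 and 1.89 ± 0.596 CPM with PBS, and its log2 fold change was 0.01 (SE 0.22, edgeR adjusted p = 0.988, interval -0.42 to 0.44). The sign for Trbc1 was negative under every alternative run, from -0.89 to -0.18, while that for Trbc2 turned to -0.58 on library totals. Trbc1 took 40.5%, 22.2%, 27.9% and 35.7% of the beta constant counts in PM2.5 replicates 9, 17, 18 and 21, and 36.0%, 36.4%, 30.1% and 47.9% in PBS replicates 4, 10, 12 and 16. Trbc2 thus held the larger share in each of the 8 libraries.

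**Figure D1:**
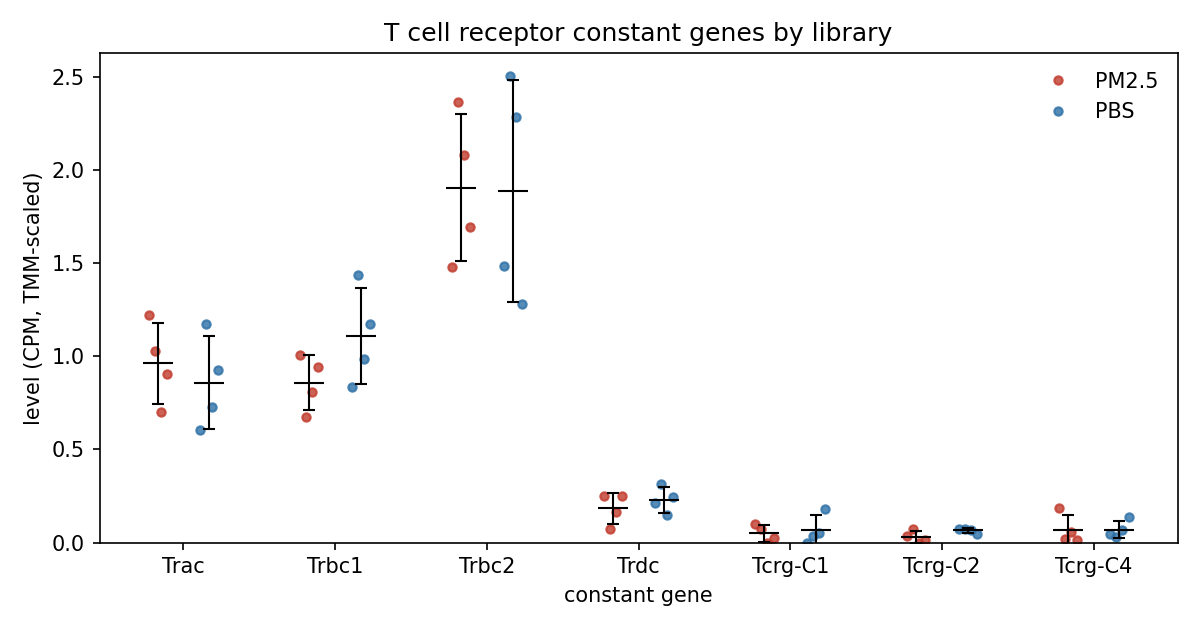
Level of each constant gene with counts in CPM of the TMM-scaled library, 1 point per library, with the mean and SD of each group (n = 4). Trbc2 stands highest at 1.91 CPM with PM2.5 and 1.89 CPM with PBS, and the gamma constant genes lie near the floor.

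Trdc, the constant gene of the delta chain (chromosome 14, 54142851 to 54148868), lies inside the alpha locus and is removed when a cell rearranges alpha. It had 20, 4, 9 and 21 counts in PM2.5 replicates 9, 17, 18 and 21, and 23, 34, 11 and 27 in PBS replicates 4, 10, 12 and 16. PM2.5 replicates 17 and 18 were the lowest of the 8, and the groups overlapped. Its level was 0.185 ± 0.084 CPM with PM2.5 and 0.230 ± 0.070 CPM with PBS (SD, n = 4 each). The log2 fold change was -0.29 (SE 0.42, edgeR adjusted p = 0.737, interval -1.11 to 0.53), and 0.11 without PM2.5 replicates 17 and 18.

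Gamma constant genes form 4 cassettes with their own V segments on chromosome 13. Tcrg-C1 (19214103 to 19217024) had 8, 4, 0 and 2 counts in PM2.5 replicates 9, 17, 18 and 21, and 0, 4, 4 and 20 in PBS replicates 4, 10, 12 and 16. Tcrg-C2 (19304649 to 19307551) had 3, 4, 0 and 1 with PM2.5, and 8, 8, 5 and 5 with PBS. Tcrg-C4 (19344558 to 19352756) had 15, 1, 3 and 1 with PM2.5, and 5, 3, 5 and 15 with PBS. Unscaled counts of Tcrg-C2 did not overlap between the groups, but how many of all genes share this was not computed. Its levels in CPM did overlap, and the gene did not pass the filter. Tcrg-C3 (19260884 to 19263528), with an annotated coding length of 443 bases, had 0 counts in all 8 libraries, which allows up to 0.0273 to 0.0555 CPM. Coding identity was 97.4% between Tcrg-C1 and Tcrg-C2 and 96.8% between Tcrg-C1 and Tcrg-C3, while Tcrg-C1 and Tcrg-C4 shared 78.7%. Few stretches of 100 bases were shared with another annotated gene: 8.24% in Tcrg-C1, 0.61% in Tcrg-C2 and 4.19% in Tcrg-C3. Counts of these genes were whole in every library. Whether fragments were placed in the wrong gene among them was not tested. Summed, the gamma constant genes had 26, 9, 3 and 4 counts in PM2.5 libraries and 13, 15, 14 and 40 in PBS libraries. PM2.5 replicate 9 and PBS replicate 16 stood apart from the others, and the groups overlapped.

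Shares of constant gene counts placed beta first, alpha second, and delta and gamma far below. Beta took 58.1%, 70.6%, 75.7% and 68.7% in PM2.5 replicates 9, 17, 18 and 21, and 71.3%, 70.7%, 75.4% and 61.5% in PBS replicates 4, 10, 12 and 16. Alpha took 28.5%, 23.8%, 18.4% and 23.5% with PM2.5, and 18.5%, 21.1%, 16.8% and 23.2% with PBS. Beta was the larger in each library, with the lowest beta shares in PM2.5 replicate 9 and PBS replicate 16. Gamma and delta together took 13.4%, 5.53%, 5.83% and 7.74% with PM2.5, and 10.1%, 8.21%, 7.79% and 15.3% with PBS, so the groups overlapped. Pooled over libraries, that share was 8.66% of 1108 counts with PM2.5 and 10.3% of 1713 counts with PBS. Delta and gamma did not keep a fixed order: delta was the larger in libraries 18 and 21 with PM2.5 and in libraries 4 and 10 with PBS, and gamma the larger in the other 4. These are shares of counts, and Trdc is listed at 3865 bases against 935 for Trac. Per length the gap was wider, with a mean deposited FPKM of 1.82 ± 0.803 for Trac against 0.048 ± 0.033 for Trdc in PM2.5 libraries, and 2.13 ± 0.95 against 0.082 ± 0.038 in PBS libraries (SD, n = 4 each). On the same FPKM scale Trbc2 averaged 3.90 ± 0.403 with PM2.5 and 5.78 ± 1.95 with PBS, and Trbc1 1.70 ± 0.749 with PM2.5 and 3.13 ± 1.07 with PBS.

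**Figure D2:**
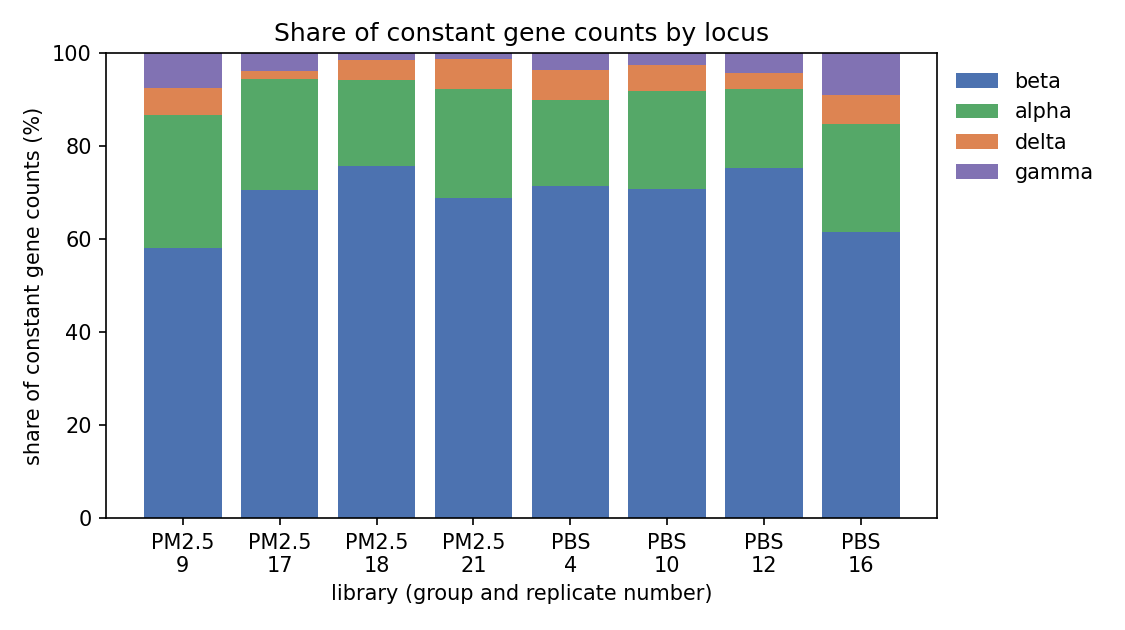
Share of constant gene counts in percent, stacked by locus, for each of the 8 libraries. Beta takes 58.1% to 75.7% of every bar, and gamma with delta 5.53% to 15.3%.

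Receptor chains reach the surface only with the CD3 subunits Cd3d, Cd3e, Cd3g and Cd247, which offer a measure of the same complex. Per 100 counts of these 4 genes, the alpha constant gene had 23.1, 17.7, 13.5 and 20.9 in PM2.5 replicates 9, 17, 18 and 21, and 20.7, 21.1, 14 and 18.6 in PBS replicates 4, 10, 12 and 16. The beta constant genes had 47.1, 52.4, 55.5 and 61.2 with PM2.5, and 79.6, 70.7, 62.5 and 49.4 with PBS. Beta was higher in 3 of the 4 PBS libraries than in any PM2.5 library, but PBS replicate 16 lay inside the PM2.5 range. Of 15 T cell surface and signalling genes all were tested, and none was called. Of all genes, 0.463% were called higher and 1.14% lower. Their median log2 fold change was 0.13, beside 0.04 over all genes tested. The smallest p-values belonged to the adhesion receptor Cd2, at -0.45 (edgeR adjusted p = 0.216), the adaptor Lat, at 0.39 (edgeR adjusted p = 0.231), and Cd8a of the cytotoxic T cell co-receptor, at 0.50 (edgeR adjusted p = 0.233). The summed level of these 15 genes was 23.5 to 26.3 CPM with PM2.5 and 19.4 to 28.6 CPM with PBS.

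**Figure D3:**
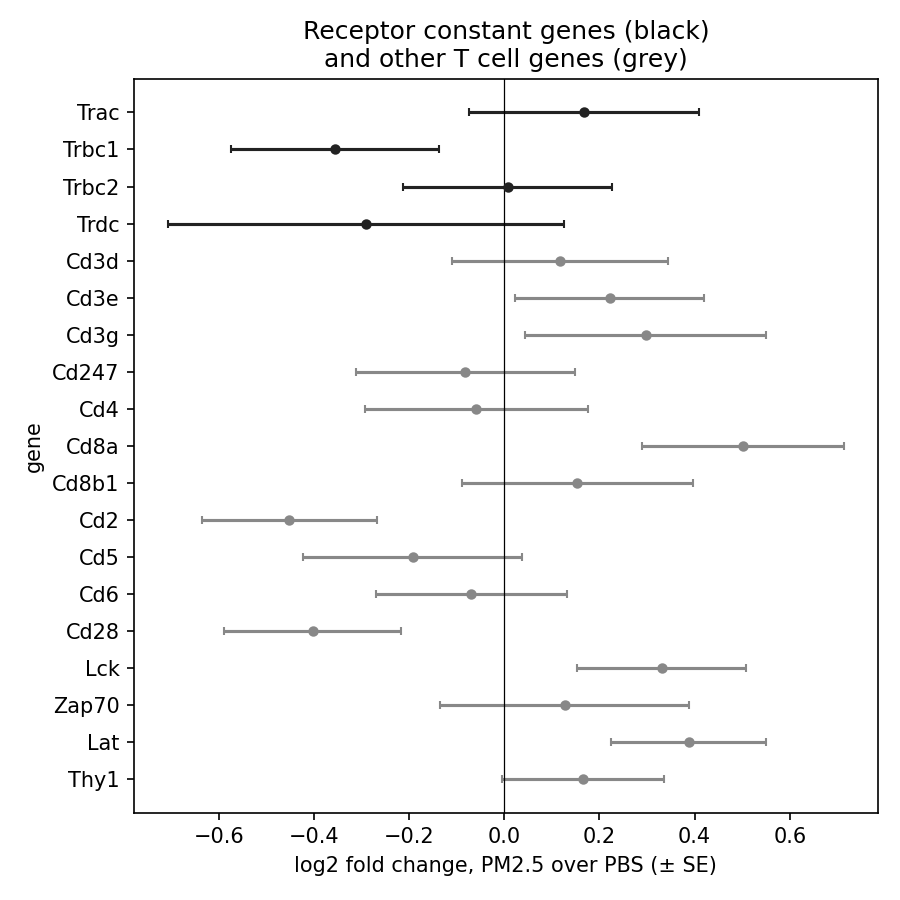
Log2 fold change of PM2.5 over PBS with its SE (edgeR, n = 4 each) for the 4 receptor constant genes tested, in black, and 15 other T cell genes, in grey. None was past adjusted p 0.05; Trac sits at 0.17, Trbc1 at -0.36, Trbc2 at 0.01 and Trdc at -0.29.

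Among genes associated with gamma-delta T cells, 4 of 7 were tested and 1 was called, lower with PM2.5, beside 1.14% of all genes. That gene was Blk, a Src family kinase that B cells use as well, at -0.81 (SE 0.19, edgeR adjusted p = 0.045). Of 6 B cell genes 1 was called, lower: Ebf1, a transcription factor of B cell development, at -1.12 (SE 0.18, edgeR adjusted p = 0.0068). All 6 had negative log2 fold changes on the TMM scale, with a summed level of 26.1 to 33.3 CPM with PM2.5 and 30.8 to 48.7 CPM with PBS. The part of B cells in the value of Blk was not tested. The recombinase genes Rag1 and Rag2, with Dntt and Ptcra, which act in developing lymphocytes, summed to 0 to 2 counts per PM2.5 library and 1 to 7 per PBS library, with Rag2 at 0 in all 8. None of the 4 was tested.

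Genes of other blood cells were measured beside the receptor genes. Of all genes tested, 0.463% were called higher and 1.14% lower. Log2 fold changes were negative for 2 of the 7 natural killer cell genes and 1 of the 5 monocyte genes. All 6 neutrophil genes had positive values. Of 7 natural killer cell genes 1 was called, higher: the activating receptor Ncr1, at 1.40 (edgeR adjusted p = 0.048). Of 6 neutrophil genes 3 were called, all higher: S100a8, of the calprotectin complex, at 1.19 (edgeR adjusted p = 0.026), the chemokine receptor Cxcr2, at 0.94 (edgeR adjusted p = 0.048), and the gelatinase Mmp9, at 1.19 (edgeR adjusted p = 0.043). Of 5 monocyte genes 2 were called, both higher: the chemokine receptor Ccr2, at 1.99 (edgeR adjusted p = 0.0029), and the proteoglycan Vcan, at 2.23 (edgeR adjusted p = 0.012). None was called of 7 erythroid, 4 platelet or 3 brain-expressed genes tested. Among the platelet genes the smallest p-values belonged to Pf4, Gp9 and Itga2b, at 0.44, 0.36 and 0.37 on the log2 scale. The part of these cells in the receptor values was not tested.

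V segments were sparse. Of 144, 105 had counts in at least 1 library: 78 of 110 in alpha, 22 of 22 in beta, 2 of 7 in gamma and 3 of 5 in delta. The alpha number, and the numbers of segments below, count copies with identical transcripts separately. Of 12 such pairs with counts, 11 had equal counts for both copies in every library. The number seen per library was 49, 37, 36 and 54 in PM2.5 replicates 9, 17, 18 and 21, and 44, 61, 46 and 44 in PBS replicates 4, 10, 12 and 16. PBS replicate 10 had both the most receptor counts and the most V segments. A total of 90 segments stayed under 3 counts in every library, 3 beta segments were counted in all 8, and 29 reached 10 counts over the series. Of these 29, 17 were beta and 12 alpha. PM2.5 libraries held 86 segments and PBS libraries 91, with 72 in both, which is 83.7% of those seen with PM2.5 and 79.1% of those seen with PBS. None of the 14 seen with PM2.5 alone or the 19 seen with PBS alone can be called absent from the other group at this depth.

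Annotated V transcripts are short, and the deposited FPKM carries that with it. The length implied by the deposited FPKM, found by dividing each value into its count and library total, was 642 bases for the longer transcript of Trac, listed at 935, and 443 for Trbc1, listed at 737. For V transcripts under 350 bases, listed at a median of 337, the implied median was 51.0 bases, and for those of 350 to 399 it was 79.3. A V segment with 3 counts in a library was accordingly listed at 0.13 to 0.77 FPKM, with a median of 0.34 over 49 such values, whereas a gamma constant gene with 3 counts was listed at 0.05 to 0.07. The alpha V genes summed to 8.70 ± 4.21 FPKM with PM2.5 and 6.67 ± 1.95 FPKM with PBS, above the Trac means of 1.82 and 2.13 FPKM, although Trac held 616 counts and the alpha V genes 441. The FPKM of Trac as a gene also adds a shorter transcript where that was counted. FPKM of V and C genes were therefore not set against each other further. Counts carry no correction for length, which limits ranks, shares and zeros of V segments and V counts per constant gene counts.

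Beta V segments were the best covered, and 20 of the 22 shared no stretch of 100 bases with another annotated gene. Trbv12-2 (chromosome 6, 41118851 to 41119364) had the most counts of any V segment, with 2, 2, 2 and 1 in PM2.5 replicates 9, 17, 18 and 21, and 2, 20, 3 and 14 in PBS replicates 4, 10, 12 and 16. The high values were those of PBS replicates 10 and 16, and the other 6 libraries held 1 to 3. It took 19.8% of the 101 beta V counts in PBS replicate 10 (95% Wilson interval 13.2% to 28.6%) and 20.3% of 69 in PBS replicate 16 (12.5% to 31.2%). These libraries were picked for their high values, and the intervals cover counting error only. The sequence of Trbv12-2 is shown with that of Trbv12-1, its family member, because neither shares a stretch of 100 bases with another gene. Of the 372 coding bases 44 differ. Positions 73 to 372 are printed, 5′ to 3′ on the plus strand of GRCm38, from Trbv12-1 at chr6:41113550-41114067 and Trbv12-2 at chr6:41118851-41119364, exons joined, with the 32 differing bases in capitals.
Trbv12-1: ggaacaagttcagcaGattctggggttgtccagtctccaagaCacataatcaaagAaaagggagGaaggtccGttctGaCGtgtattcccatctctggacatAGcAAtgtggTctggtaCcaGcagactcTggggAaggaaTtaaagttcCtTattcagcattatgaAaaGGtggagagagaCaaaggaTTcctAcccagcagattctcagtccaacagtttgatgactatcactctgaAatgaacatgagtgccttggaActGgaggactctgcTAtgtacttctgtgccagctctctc
Trbv12-2: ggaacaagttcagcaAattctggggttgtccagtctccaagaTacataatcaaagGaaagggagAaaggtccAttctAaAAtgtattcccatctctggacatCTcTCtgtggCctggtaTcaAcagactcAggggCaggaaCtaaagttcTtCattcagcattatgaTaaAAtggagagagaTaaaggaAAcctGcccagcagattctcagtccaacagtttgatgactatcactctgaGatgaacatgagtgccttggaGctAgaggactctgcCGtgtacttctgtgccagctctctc
Coding identity was 88.2%, and Trbv12-1 held 1 count over the PM2.5 libraries and 6 over the PBS libraries.

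Trbv16 had 6, 3, 3 and 4 counts in PM2.5 replicates 9, 17, 18 and 21, and 4, 5, 8 and 0 in PBS replicates 4, 10, 12 and 16. Trbv15 had 7, 0, 2 and 6 with PM2.5, and 2, 4, 6 and 8 with PBS. Trbv29 had 5, 2, 4 and 4 with PM2.5, and 2, 4, 8 and 2 with PBS. In each of these the groups overlapped and no library reached 10 counts. Trbv31, which lies beyond the constant genes and reads in the opposite direction, had 7, 2, 1 and 2 with PM2.5, and 3, 11, 0 and 8 with PBS. Its high values lay in PBS replicates 10 and 16 and in PM2.5 replicate 9. The 10 beta segments with the most counts held 73.4% of the 414 beta V counts. Trbv20, Trbv21, Trbv23 and Trbv30 stayed under 3 counts in each library, which does not show that they were unused. Beta V counts came to 61, 28, 30 and 42 with PM2.5, and 40, 101, 43 and 69 with PBS, or 30.5, 16.9, 19.2 and 18.9 per 100 beta constant counts with PM2.5 and 15.7, 23.9, 17.8 and 25.6 with PBS.

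**Figure D4:**
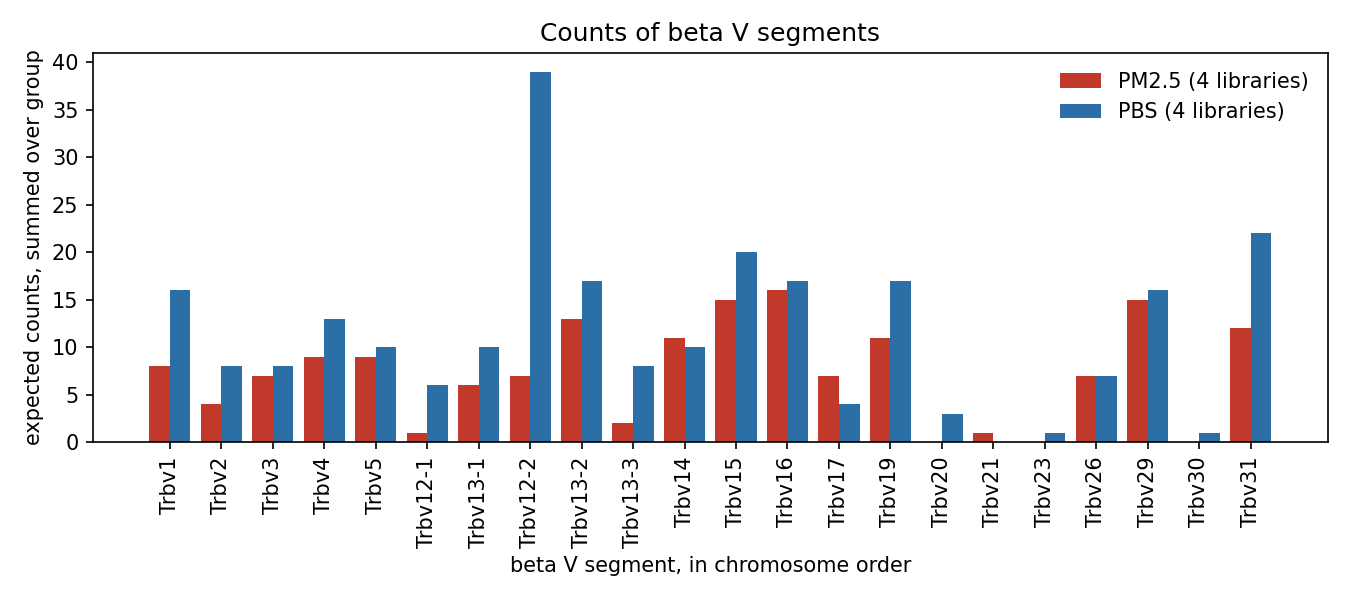
Expected counts of each beta V segment summed over the 4 libraries of each group, in chromosome order. Trbv12-2 stands out in the PBS bars, where 20 and 14 of its counts come from PBS replicates 10 and 16.

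The alpha locus of the mouse holds duplicated blocks of V segments, whose copies carry the letters d and n. Of the 110 alpha V genes, 36 shared every stretch of 100 bases with another gene, 53 shared at least 50% of them and 20 shared none. In 32 the annotated transcript was identical to that of another gene. The 16 pairs this makes were counted in 12 cases, and in 11 of the 12 both copies had equal counts in each library, to within 0.011. Trav9d-3 and Trav9n-3 are an example, each with 1.5, 0, 1 and 0.5 counts in PM2.5 replicates 9, 17, 18 and 21, and 1.5, 4, 1.5 and 0.5 in PBS replicates 4, 10, 12 and 16. Their 340 coding bases, shown because 1 sequence stands for both genes, were identical. Positions 41 to 340 are printed, 5′ to 3′ on the plus strand of GRCm38, from Trav9d-3 at chr14:52920443-52921112 and Trav9n-3 at chr14:53231433-53232102, exons joined, with no base in capitals since none differed.
Trav9d-3 and Trav9n-3: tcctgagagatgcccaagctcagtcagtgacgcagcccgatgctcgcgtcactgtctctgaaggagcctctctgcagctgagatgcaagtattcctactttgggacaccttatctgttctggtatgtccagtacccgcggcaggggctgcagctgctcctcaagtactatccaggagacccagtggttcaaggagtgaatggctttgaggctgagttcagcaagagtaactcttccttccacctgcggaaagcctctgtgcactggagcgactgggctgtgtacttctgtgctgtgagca
Counts of such copies state how much of the shared sequence was seen, not which copy was used.

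Trav7-2 had the most counts among alpha V segments, 0, 0, 3 and 19 in PM2.5 replicates 9, 17, 18 and 21, and 3, 3, 5 and 4 in PBS replicates 4, 10, 12 and 16. The value of 19 in PM2.5 replicate 21 stood apart from the other 7 libraries. It made up 22.4% of the 85 alpha V counts of that library (95% Wilson interval 14.8% to 32.3%). That library was picked for its high value, and the interval covers counting error only. The coding sequence of Trav7-2 is shown because the value of 19 rests on it. Trav7d-2, listed with 0 counts in all 8 libraries, also matched all 336 coding bases. Positions 37 to 336 are printed, 5′ to 3′ on the plus strand of GRCm38, from chr14:53390635-53391142, exons joined, with no base in capitals.
Trav7-2: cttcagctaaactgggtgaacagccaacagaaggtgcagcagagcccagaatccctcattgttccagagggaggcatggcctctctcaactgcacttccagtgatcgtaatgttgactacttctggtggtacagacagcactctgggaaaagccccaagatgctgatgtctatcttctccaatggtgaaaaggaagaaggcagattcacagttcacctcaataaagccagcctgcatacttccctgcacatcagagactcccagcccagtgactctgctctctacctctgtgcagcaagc
The counts may thus belong to either copy.

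Trav8n-2 had 9, 2, 0 and 0 counts in PM2.5 replicates 9, 17, 18 and 21, and 0, 3, 5 and 2 in PBS replicates 4, 10, 12 and 16. Trav14-1 had 3, 3, 0 and 2 with PM2.5, and 3, 6, 1 and 0 with PBS. Trav9-2 had 4, 0, 4 and 1 with PM2.5, and 3, 2, 0 and 1 with PBS. All 3 were scattered across both groups with 0 in at least 1 library of each. Trav12-1 had 0, 7, 1 and 1 with PM2.5 and 0 in all 4 PBS libraries, so that most of its counts came from PM2.5 replicate 17. It was tested only with no filter, where it had an unadjusted p under 0.05 and was not called. The 10 alpha segments with the most counts held 36.1% of the 441 alpha V counts. The 10 of beta held 73.4%, but they are 10 of 22 genes, while those of alpha are 10 of 110. The 2 shares are therefore not on a like base. The alpha 10 also include both Trav9d-3 and Trav9n-3.

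**Figure D5:**
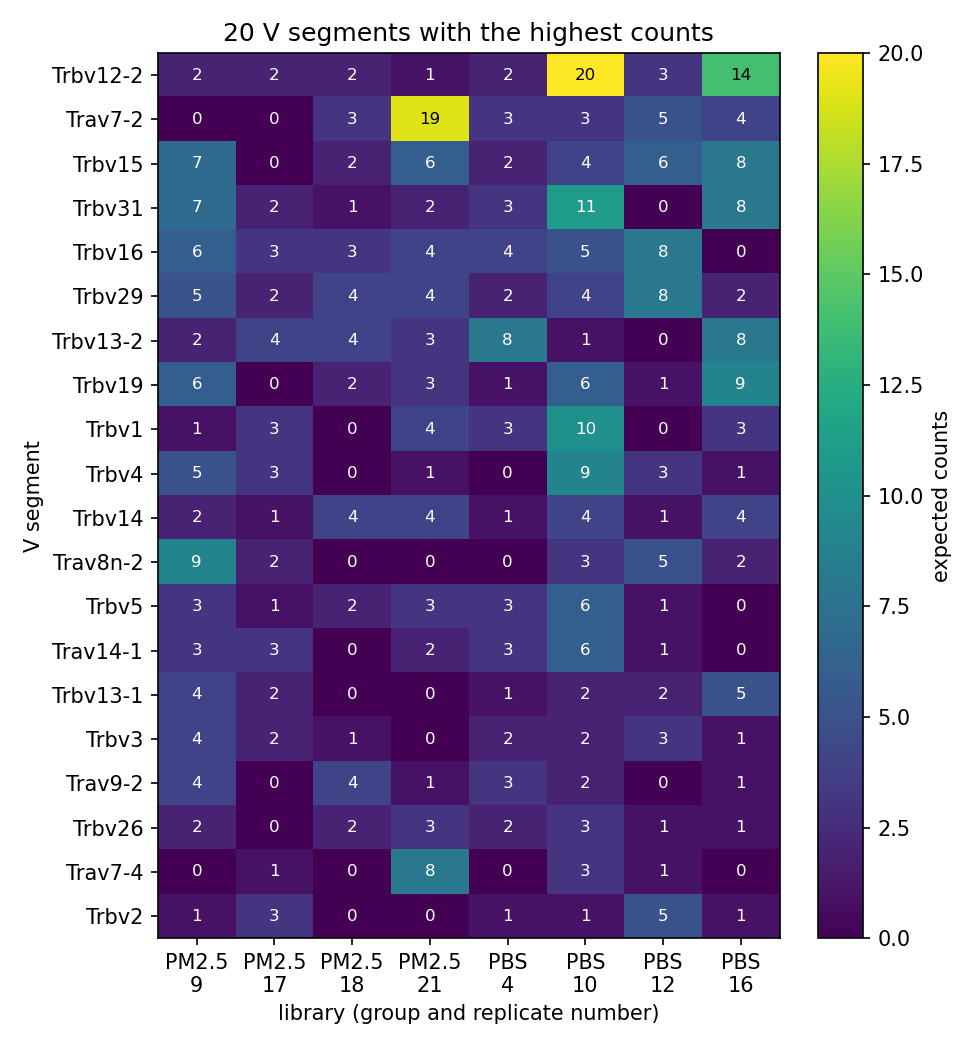
Expected counts of the 20 V segments with the most counts, 1 column per library, with the count printed in each cell. The bright cells are Trbv12-2 in PBS replicates 10 and 16, at 20 and 14, and Trav7-2 in PM2.5 replicate 21, at 19.

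Summed alpha V counts were 58, 41, 42 and 85 in PM2.5 replicates 9, 17, 18 and 21, and 48, 75, 50 and 42 in PBS replicates 4, 10, 12 and 16, and overlapped. On the TMM scale they did not: the sum was 0.722 to 1.01 CPM with PM2.5 and 0.382 to 0.699 CPM with PBS, or 0.815 ± 0.132 and 0.549 ± 0.162 CPM (SD, n = 4 each). Of single genes tested, 9.66% had groups that did not overlap on that scale. The log2 ratio of the means was 0.57 on the TMM scale and with median-ratio factors, 0.25 with haemoglobin removed and 0.38 on FPKM. It was 0.05 on library totals, a scaling that placed the median of all genes at -0.52 instead of 0.04. The size of the ratio thus depended on the scaling, and overlap of the groups on these other scales was not examined. Segments without a copy letter were at 0.545 ± 0.148 CPM with PM2.5 and 0.248 ± 0.097 CPM with PBS. The d copies were 0.126 CPM with PM2.5 and 0.160 CPM with PBS, and the n copies 0.124 CPM and 0.133 CPM. This division by letter is uncertain, because copies share sequence. The unlettered Trav7-2, at 22 counts with PM2.5 (19 in replicate 21) and 15 with PBS, may in part be Trav7d-2. Per 100 Trac counts the alpha V counts were 59.2, 73.2, 111 and 112 in the PM2.5 libraries, and 72.7, 59.5, 92.6 and 41.2 in the PBS libraries, which overlapped.

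V segments of innate-like T cells were close to undetected, but so were many other V segments. Of all 110 alpha V genes, 32 had 0 counts, and the median total was 2 counts over the 8 libraries. Trav11 and its copy Trav11d, used by the invariant chain of natural killer T cells, had 0 counts in all 8 libraries, which allows up to 0.0273 to 0.0555 CPM in each. Trav1, used by mucosal-associated invariant T cells, had 1 count, in PBS replicate 4. Among gamma V segments, Tcrg-V4 had 0, 3, 1 and 0 counts in PM2.5 replicates 9, 17, 18 and 21, and 0, 0, 0 and 1 in PBS replicates 4, 10, 12 and 16. Trgv2 had 0, 1, 0 and 0 with PM2.5, and 0, 0, 0 and 6 with PBS. The 6 counts lay in PBS replicate 16. Trgv2 reads on the minus strand, as does Tcrg-C2 alone among the gamma constant genes. Tcrg-C2 had 5 counts in that library, against 8 in PBS replicates 4 and 10. Tcrg-V1, Tcrg-V3, Tcrg-V5, Tcrg-V6 and Tcrg-V7 had 0 counts in all 8.

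Delta V segments were as thin. Trdv1 had 0, 0, 2 and 0 counts in PM2.5 replicates 9, 17, 18 and 21, and 4, 0, 0 and 0 in PBS replicates 4, 10, 12 and 16. Trdv4 had 1, 1, 0 and 1 with PM2.5, and 0, 0, 1 and 0 with PBS. Trdv5 had 3, 0, 0 and 1 with PM2.5 and 0 in the PBS libraries, but its exons overlap those of Trdc by 207 bases on the opposite strand. Without knowledge of whether the counting used strand, reads of that overlap cannot be told apart. Trdv2-1 and Trdv2-2 had 0 counts in all 8 libraries. Delta chains can also use alpha segments that carry a dv name, and 10 such genes are counted with alpha here. They had 2, 1, 12 and 3 counts in PM2.5 replicates 9, 17, 18 and 21, and 3, 7.5, 1 and 3 in PBS replicates 4, 10, 12 and 16. Of the 18 counts with PM2.5, 12 lay in replicate 18, and 6 remain without it, against 14.5 with PBS.

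Gamma V counts came to 12 and delta V counts to 14 over the whole series, against 124 and 149 counts of their constant genes. The J and D genes that complete a receptor, 70 and 4 in the annotation, had 0 counts in all 8 libraries, and of 34 V pseudogenes only Trbv24 was counted, with 1 count over the PM2.5 libraries and 3 over the PBS libraries. The zeros of the J and D genes do not show that they were unused. Among V transcripts under 350 bases the length implied by FPKM fell to 12.7 bases. Whether still shorter genes could receive counts was not tested.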

How the data were processed

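Libraries from 8 buffy coats were made from total RNA with random primers and keep the strand, per the labels' protocols. Per the submitters' processing notes, the tools named are HISAT2 2.0.1, cutadapt 1.9.1 and bcl2fastq 2.17.1.14, and the build is GRCm38. Which tool counted, and with what strand setting, is not given in the sources used here. The authors deposited 1 table of 118783 Ensembl transcripts. Its expected counts are estimated counts deposited without normalization, and 24.5% are not whole. Its FPKM values were scaled by the authors for length and library, per the file headers.

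Transcripts were summed to 35944 genes through GENCODE M21, which lists 116710 of them; the other 2073 (0.0266% to 0.0532% of a library) were dropped. Rounded sums went into edgeR 4.0.16 under R 4.3.3: a two-sided quasi-likelihood test with TMM, filterByExpr at its minimum count 10 and total 15, the group as the sole term, and Benjamini-Hochberg adjustment over all 10361 genes tested, threshold 0.05. The SE is the log2 fold change over the square root of F, and intervals are 95%. No p-value was computed for summed members. Each pair of libraries of a group differed by more than sampling noise, so all 8 were kept. The steps were tested on simulated data.

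Alternatives were scaling to library totals, median-ratio factors, haemoglobin removed, no filter, a filter of 3 counts in 4 libraries, DESeq2 1.42.0, limma 3.58.1 on log2(FPKM + 1) or with a pseudocount of 0.1, each library left out, and PM2.5 replicates 17 and 18 left out. Members and lists were chosen with earlier results of these data known. Named were the constant genes, the 5 V segments of highest mean CPM per locus, V segments of innate-like T cells, and list members past the threshold or otherwise the 3 of smallest p. Some genes that this rule selects are reported nowhere here. Trbv12-1, Trav9d-3, Trav9n-3 and Trav7d-2 were added as near copies, and Snap25, Trbv20, Trbv21, Trbv23, Trbv30 and Trbv24 after their values were seen. Sequences are coding parts of GENCODE M21 transcripts, and sharing was counted in windows of 100 bases.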

Additional observations from a re-analysis of the deposited data

How the results depend on the processing

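No receptor gene was called under any of the 17 alternatives, and with 0 to 20 counts per V segment and library the depth could not show moderate changes. No paired analysis was possible because the groups share no replicate number. The count of all genes called, 166 in the fit reported, was 483 on library totals, 624 with no filter, 371 with DESeq2, 0 with limma at either pseudocount (1966 and 1979 genes at an unadjusted p under 0.05), 8 without PM2.5 replicates 17 and 18, and 31 to 192 with each library left out in turn. The log2 fold change of Trac was -0.37 on library totals, -0.17 with haemoglobin removed, -0.13 and -0.18 with limma, and -0.01 to 0.32 with a library left out. That of Trbc2 was -0.58 on library totals, -0.36 with haemoglobin removed, -0.01 with no filter, -0.001 with the 3-count filter, -0.43 and -0.51 with limma, -0.23 without PM2.5 replicates 17 and 18, and -0.16 to 0.15 with a library left out. That of Trdc was 0.11 without PM2.5 replicates 17 and 18 and -0.49 to -0.05 with a library left out, and that of Trbc1 -0.51 to -0.24. Log2 ratios of summed levels on library totals were -0.37 for alpha C, -0.69 for beta C, 0.05 for alpha V and -0.63 for beta V; on FPKM they were -0.23 for alpha C and -0.67 for beta C, and with haemoglobin removed -0.48 for beta C. With a library left out they were 0.03 to 0.35 for alpha C, -0.22 to 0.04 for beta C, -1.18 to -0.01 for gamma C, -0.50 to -0.06 for delta C, 0.43 to 0.71 for alpha V and -0.30 to 0.15 for beta V. The median log2 fold change of all genes was 0.04 in the fit reported, -0.52 on library totals and -0.30 with haemoglobin removed; the cause of these differences between settings was not tested. Adjusted p ranged over the alternatives from 0.519 to 0.997 for Trac, 0.139 to 0.837 for Trbc1, 0.263 to 0.998 for Trbc2 and 0.313 to 0.964 for Trdc.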
